A study of Rattus norvegicus with 85 samples.

Results

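Editing of adenosine to inosine in RNA was compared between the newborn and the adult amygdala (AMY) of Sprague-Dawley rats in the pre-reproductive stress (PRS) line. The comparison took every AMY sample labelled P0, F1 and PRS (6 samples, 3 female and 3 male) and every AMY sample labelled P60, F0 and PRS (7 samples, all female), 13 of the 85 samples of the series. The P60 animals had themselves gone through 7 days of unpredictable stress in adolescence and were killed 2 weeks later, whereas the P0 animals were untreated offspring of PRS dams. Age, generation, direct exposure to stress and the punch size stated in the methods (larger in adults) change together between the 2 groups, so their parts in any difference cannot be told apart. The AMY of the unstressed Control line (5 P0 F1 and 5 P60 F0 samples) and the prefrontal cortex (PFC) of the PRS line (6 P0 F1 and 6 P60 F0 samples) served as comparisons. Each sample is a bilateral tissue punch, so cell types are not resolved, and the amplicons read out no marker gene of the region.

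ADAR enzymes deaminate adenosines in double-stranded stretches of a transcript, and inosine is read as guanosine by the ribosome and by sequencing. In neurons the best known targets are glutamate, GABA and serotonin receptors and ion channels, in which a single edited base recodes 1 amino acid and alters gating, permeability or coupling to G proteins. Other edited adenosines lie in untranslated regions, often in clusters along a hairpin.

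Editing was measured by mmPCR-seq, in which pools of primer pairs amplify the edited stretches in a microfluidic array. The editing level is the percentage of reads at a site that carry G in place of A. The primer pairs of the sites that changed most, or that behaved differently in the PFC, are given here, because they define which stretch of the transcript was read and which sites share reads. Each primer is written 5′ to 3′, with its tail, 1 of the 2 that the primers share, in lower case and the gene-specific part in capitals.
Gria4 R/G forward: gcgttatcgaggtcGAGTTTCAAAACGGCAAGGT
Gria4 R/G reverse: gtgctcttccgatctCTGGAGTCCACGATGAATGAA
Gria3 R/G forward: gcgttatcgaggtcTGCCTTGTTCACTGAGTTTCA
Gria3 R/G reverse: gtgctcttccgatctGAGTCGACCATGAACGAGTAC
Gabra3 forward: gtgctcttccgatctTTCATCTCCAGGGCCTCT
Gabra3 reverse: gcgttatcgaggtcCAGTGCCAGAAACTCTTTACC
Flna forward: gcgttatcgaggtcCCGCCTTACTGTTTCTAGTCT
Flna reverse: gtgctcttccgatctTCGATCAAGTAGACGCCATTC
Htr2c A to D forward: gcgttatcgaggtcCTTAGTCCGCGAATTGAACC
Htr2c A to D reverse: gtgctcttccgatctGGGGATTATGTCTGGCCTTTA
Grik2 Y/C and I/V forward: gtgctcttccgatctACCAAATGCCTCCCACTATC
Grik2 Y/C and I/V reverse: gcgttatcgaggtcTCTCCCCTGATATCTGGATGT
Grik2 Q/R, M/V and G forward: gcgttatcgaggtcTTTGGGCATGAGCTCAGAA
Grik2 Q/R, M/V and G reverse: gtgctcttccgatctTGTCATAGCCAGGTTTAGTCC
The 4 Htr2c sites A to D were read on 1 amplicon, and so were the Grik2 Y/C and I/V pair and the Grik2 Q/R, M/V and G trio. Such neighbours share their reads and are not independent measurements. All site positions are on the rn4 assembly, with genic regions as the files give them.

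Of 179 listed sites, 148 had 50 reads or more in at least 3 samples of each age, among them all 146 sites of the study's own site table. The remaining 31 listed sites lie outside that table and did not meet the coverage rule. Reads summed over the listed sites ran from 893435 to 2835747 in newborns and from 173522 to 1475076 in adults, so adults were the shallower group. A level of 50% from 50 reads has a 95% Wilson interval of 36.6% to 63.4%, and a level of 0 there allows up to 6%. PCR reads without molecular identifiers are not independent molecules, so these intervals cover counting error only. Nothing in the labels ties samples to litters, and p-values measure the spread between these samples. Every pair of replicates differed at 21 or more sites by over 4 standard errors of counting, so no set of reads appeared to be a copy of another. This cannot show that each library came from a different animal. In 59 of 298 sets of values, each 1 site at 1 age, 1 sample lay far from the rest. Newborn replicate 53, a male, stood apart most often, as the highest or lowest of its group in 16 of the 59. Some of the 16, such as Grik2 Y/C and I/V, share reads.

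In the PRS amygdala, editing was higher in adults than in newborns at most of the sites that differed, and it was lower at few. An exact rank test at each site (Mann-Whitney U, two-sided), adjusted by Benjamini-Hochberg over all 148 sites at a false discovery rate of 0.1, called 82 sites, 55.4% of those tested. Of these, 79 (53.4%) rose and 3 (2.03%) fell. Among the falls, that at Slco2a1 rests on few adult reads. In 58 sites (39.2%) every adult lay above every newborn. The median rise among the 79 was 6.75 percentage points (0.612 to 37.6) and the median ratio of the mean levels was 2.97, with 59 sites at 2-fold or more. Among the 66 sites that did not pass, 38 had mean levels under 1% at both ages. Mean levels reached 10% at 26 sites in newborns and at 52 in adults. The order of the sites was largely kept: across the 146 sites of the study's table, mean levels at the 2 ages had a Pearson r of 0.947 and a Spearman rho of 0.909, given as a description over sites that share libraries and amplicons.

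**Figure D1:**
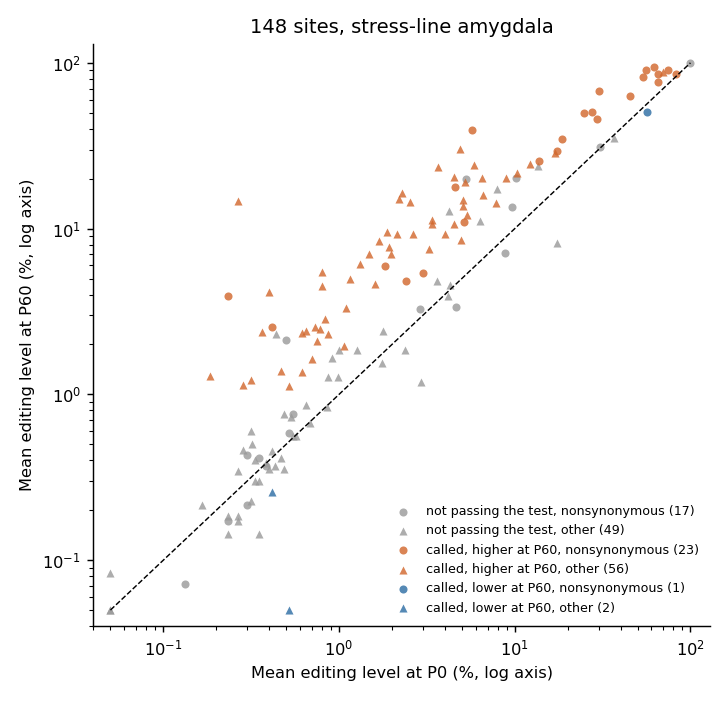
Mean editing level of the 148 tested sites in newborn (x axis) and adult (y axis) PRS amygdala, in percent on log axes, with means under 0.05% drawn at 0.05%. Points above the dashed line of equality are higher in adults: 79 called sites lie above it and 3 below.

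Averaged over the 136 sites of the study's table that were measured in all 13 samples, the mean editing level per sample was 9.11% ± 0.245 (SD, n = 6) in newborns and 14.9% ± 0.831 (SD, n = 7) in adults. Newborns ran from 8.77% through a median of 9.08% to 9.47%, and adults from 13.9% through 14.8% to 16.2%. The ranges did not overlap, and the difference was 5.74 percentage points (exact permutation test, p = 0.000583, the smallest that the 1716 splits allow). Over the 40 nonsynonymous sites the mean went from 22.3% ± 1.05 to 31.8% ± 2.12, and over the 96 other sites from 3.61% ± 0.359 to 7.79% ± 0.678. By genic region, 24 of 41 nonsynonymous sites, 7 of 16 synonymous sites, 43 of 74 sites in 3′ untranslated regions, 3 of 6 in 5′ untranslated regions, 5 of 7 intergenic sites and 0 of 2 intronic sites were called. The shares in nonsynonymous sites (58.5%) and 3′ untranslated sites (58.1%) were close to the 55.4% of all sites.

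**Figure D2:**
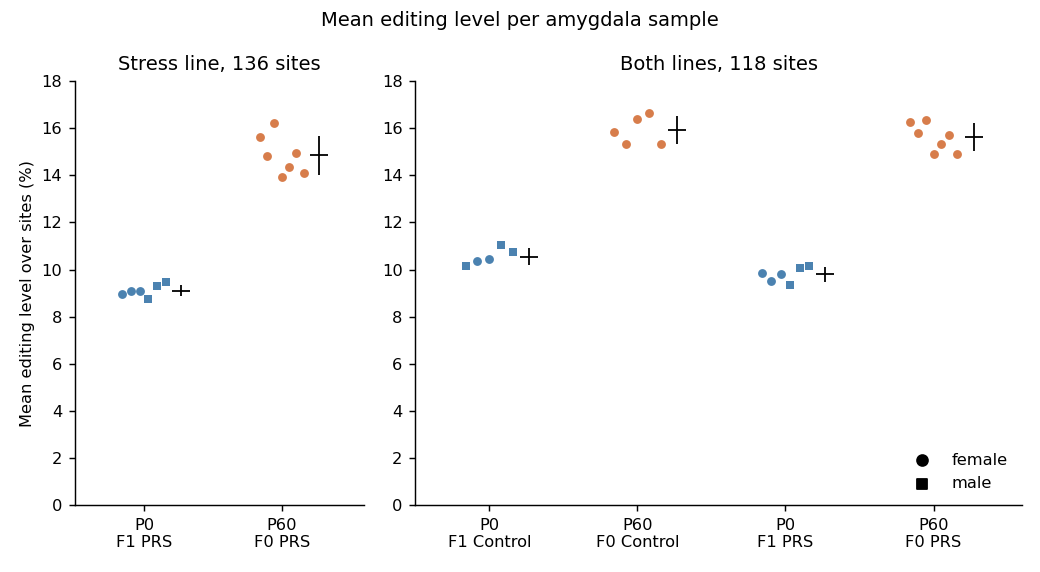
Mean editing level per AMY sample in percent, over 136 sites in the PRS line (left) and over the 118 sites measured in every sample of both lines (right). Circles are females, squares are males, and the cross beside each group is the mean with its SD; every adult sample lies above every newborn sample.

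Sex and library numbering differed between the ages, so the 79 rises are described within them. These sites were picked in the same 13 samples. At 58 of them the ages did not overlap in all samples, which holds in any subset. The counts below are therefore no separate test of sex or library set. Every adult lay above every female newborn at 69 of the 79 sites and above every male newborn at 61. The file names carry consecutive library numbers, and the array takes 48 samples. Numbers 1 to 48 held 2 newborns, both female, and 5 adults, while the other 4 newborns and 2 adults came from 2 later sets of 48. Whether such a set is a run or a day is not stated. Within numbers 1 to 48 the mean was higher in adults at 79 of 79 sites, without overlap at 72, and the median difference was 7 points. In the later sets, where each age is in a set of its own, it was higher at 78 of 78 measured sites, without overlap at 68. Female and male newborns did not overlap at 16 of 144 sites, which 3 against 3 samples cannot take below an exact p of 0.1.

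AMPA receptor subunits, which carry fast excitatory transmission, rose at 7 of their 10 sites (70%, against 53.4% of all tested sites) and fell at none, with a median difference of 1.67 points against 1.79 for all tested sites. In each of the 3 genes the R/G site shared its amplicon with a synonymous neighbour, and Gria2 Q shared 1 with Gria2 Q/R. The rises are therefore not independent measurements. The R/G site, next to the flip/flop exon choice, recodes arginine to glycine and is known to speed recovery from desensitisation. At the Gria4 R/G site (chr8:994881, minus strand) newborns ran from 23.9% through a median of 30.8% to 35.4% and adults from 64.4% through 67.6% to 73.9%. This was the largest difference of all sites, from a mean of 30.4% ± 4.65 to 68% ± 3.6. At Gria3 R/G (chrX:3477800) newborns ran from 58.8% through 61.6% to 67.9% and adults from 92.9% through 93.8% to 95.5%. The adults were nearly fully edited and spread less, with an SD of 0.92 against 3.11. Gria2 R/G (chr2:172272247) rose from 45.1% ± 3.05 to 63.3% ± 5.13, with newborn replicate 52 at 51% and the rest at 45.1% or less. The lowest adult was at 55.6%, so no newborn reached it. The synonymous Gria2 Q site (chr2:172288189) rose from 17% ± 1.55 to 28.6% ± 1.96. The Gria2 Q/R site, which makes AMPA receptors impermeable to calcium and was picked out after its values were seen, stood at 99.7% ± 0.137 in newborns and 99.8% ± 0.125 in adults and was not called (exact test, adjusted p = 0.118). Each of the 4 called sites named here had an exact adjusted p of 0.00303, the value that nearly all sites without overlap in the 13 samples share.

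Kainate receptor subunits rose at 6 of 7 sites (85.7%, against 53.4% of all tested sites), 5 of them on 2 amplicons of Grik2. Grik2 I/V (chr20:53408971) and Y/C (chr20:53408958) lie in the first membrane segment of the subunit. I/V rose from 53.4% ± 8.16 to 82.6% ± 3.51 and Y/C from 65.5% ± 13.1 to 85.9% ± 2.88 (exact adjusted p = 0.00303 for each). Newborn replicate 53 was the lowest at both, with 37.6% and 39.3%, while the other newborns held 52.8% to 59.3% and 67.5% to 74.5%. Without it the differences were 26 and 15.1 points, against 29.2 and 20.3 with it, and both stayed called. Grik1 (chr11:27749588), the Q/R site of the other kainate subunit, rose from 27.6% ± 7.26 to 50.7% ± 4.48. Newborns fell into a range of 20.5% to 36.8%, below the lowest adult at 43.2%. Grik2 Q/R (chr20:53378633), the pore site that sets calcium permeability, rose by 3.48 points, from 82.8% ± 1.41 to 86.2% ± 1.98 (exact adjusted p = 0.0127), and the ages overlapped. On the same amplicon, M/V (chr20:53378637) rose from 1.82% ± 0.412 to 5.99% ± 0.534 and the synonymous G site (chr20:53378650) from 3.27% ± 1.33 to 7.59% ± 1.05. At the G site newborn replicate 53 was the highest newborn, at 5.9%, in contrast to its low Y/C and I/V levels.

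Gabra3 encodes a subunit (alpha-3) of GABA-A receptors, which carry fast inhibition, and is recoded from isoleucine to methionine in a membrane segment. At this site (chrX:158405626) newborns ran from 48.8% through 54.8% to 63% and adults from 86.9% through 91.2% to 92.5%. Every newborn lay below every adult, and the mean rose from 55.9% ± 5.63 to 90.8% ± 2.05 (exact adjusted p = 0.00303).

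Editing of the serotonin receptor 2c in the second intracellular loop lowers its coupling to G proteins. Of its 6 sites in the study's table, 4 were called (66.7%, against 55.4% of all tested sites): 3 rose and 1 fell. At site A (chrX:31041849) newborns ran from 65.9% through 75.6% to 80.8% and adults from 87.8% through 90.7% to 92.1%. Site B (chrX:31041847) rose from 65.3% ± 4.97 to 77.1% ± 1.48. Both were without overlap (exact adjusted p = 0.00303). Site C (chrX:31041842), on the same reads, stood at 30.7% ± 2.6 and 30.9% ± 2.65 (exact test, adjusted p = 0.999). Site D (chrX:31041837) was lower in adults, at 50.3% ± 4.3 against 56.8% ± 6.06 (exact adjusted p = 0.0712). Newborns at site D ran from 51.6% through 55.2% to 67.6% and adults from 43.4% through 49.4% to 55.8%, so the ages overlapped. The highest newborn was replicate 53, and without it the difference was −4.29 points and was no longer called (exact adjusted p = 0.14). In the 3′ untranslated region, the site Htr2c 3UTR-1 (chrX:31014486) rose from 7.85% ± 3.86 to 14.2% ± 2.12 (exact adjusted p = 0.0105), with newborn replicate 53 at 0.3% and the other newborns at 7.6% or more. Htr2c 3UTR-2 (chrX:31014416) stayed near the bottom of the scale, at 0.4% ± 0.0632 and 0.357% ± 0.0535, and did not pass.

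**Figure D3:**
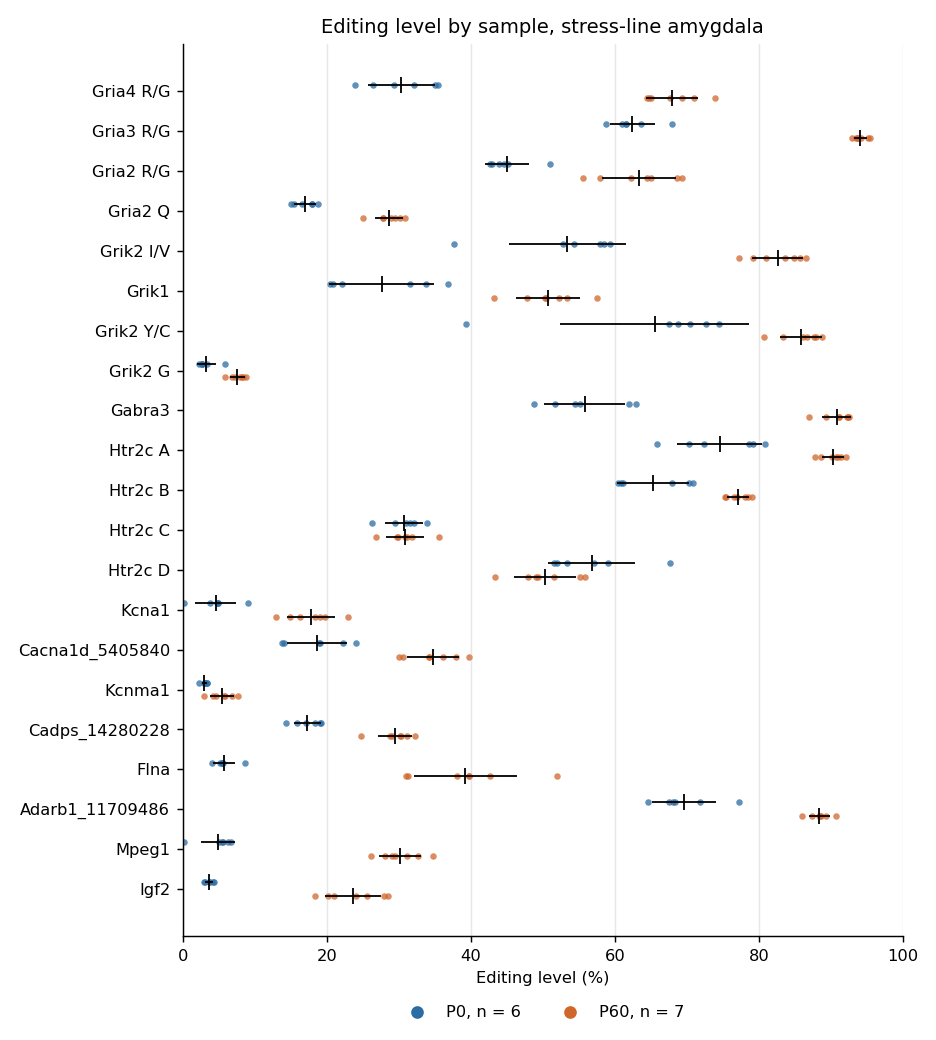
Editing level (percent) in each newborn (blue, n = 6) and adult (orange, n = 7) PRS amygdala sample at 21 sites; the vertical tick is the group mean and the line its SD. Most sites show 2 separate clouds, whereas Htr2c C overlaps fully, Htr2c D is lower in adults, and 1 newborn lies apart at Grik2 I/V and Y/C.

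All 5 sites in ion channels rose, against 53.4% of all tested sites, with a median difference of 12 points against 1.79. Of the 5, 3 lie on 1 amplicon of Cacna1d. Kcna1, a voltage-gated potassium channel in which editing speeds recovery from inactivation, rose from 4.6% ± 2.84 to 17.8% ± 3.33 (chr4:163012291), with newborn replicate 53 at 0.2%. The 3 neighbouring sites of Cacna1d (chr16:5405832, chr16:5405838 and chr16:5405840) recode the calmodulin-binding IQ motif of an L-type calcium channel. They rose from 13.8% ± 3.19 to 25.7% ± 1.95, from 2.42% ± 0.508 to 4.81% ± 0.584 and from 18.7% ± 4.19 to 34.7% ± 3.62, on the same reads (exact adjusted p = 0.00303 for each). Kcnma1, the large-conductance calcium-activated potassium channel, rose from 3.02% ± 0.371 to 5.43% ± 1.62 with overlap (chr15:322937, exact adjusted p = 0.0319). Cadps, which primes dense-core and synaptic vesicles for release, rose from 17.3% ± 1.93 to 29.5% ± 2.39 at its glutamate-to-glycine site (chr15:14280228) and from 1.07% ± 0.572 to 1.97% ± 0.403 at a synonymous site (chr15:14273751). The synonymous site, Cadps_14273751, was 0.19 points higher in adults within library numbers 1 to 48, and with female newborns only it was 0.605 points higher and not called (exact adjusted p = 0.361).

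Flna, a filamin that cross-links actin, rose without overlap at its recoding site (chrX:160382329, exact adjusted p = 0.00303). Newborns ran from 4.1% through 5.5% to 8.6% and adults from 31% through 39.7% to 52%. The ratio of the means was 6.84.

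Adarb1 encodes ADAR2, the enzyme that edits many of the receptor sites, and its own transcript carried 4 tested sites on 1 amplicon, annotated as 5′ untranslated. A pair of neighbouring bases behaved alike: chr20:11709485 rose from 12.3% ± 3.63 to 24.6% ± 4.04 and chr20:11709486 from 69.6% ± 4.41 to 88.4% ± 1.47, both without overlap (exact adjusted p = 0.00303). The other 2 did not pass. At chr20:11709472 the levels were 36.7% ± 8.64 and 35% ± 3.73, and at chr20:11709490 they were 4.27% ± 2.15 and 4.57% ± 0.832. Newborn replicate 53 was the highest newborn at both of these, with 52.6% and 8.1%. Without it, Adarb1_11709490 was 1.07 points higher in adults and was called (exact adjusted p = 0.0794). Expression of the enzymes was not measured in these files.

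Transcripts recoded in many tissues rose at 4 of 11 sites (36.4%, against 53.4% of all tested sites). Copa, a coat protein of Golgi vesicles, rose from 5.15% ± 1.11 to 11% ± 1.2 (chr13:88088487). Mcrs1 rose from 29.3% ± 6.5 to 45.7% ± 2.64, with only 5 adults measured (chr7:138004466, exact adjusted p = 0.0102). Gtf3c2_25180878 (chr6:25180878 in the deposited files, placed on another chromosome in the study's site table), in a subunit of the transcription factor that recruits RNA polymerase III, had means of 10.1% ± 2.46 and 20.3% ± 10.7 and did not pass (exact adjusted p = 0.125), with adults from 6.4% to 35%. It passed without adult replicate 162, the lowest adult (12.5 points, exact adjusted p = 0.018), and under the exact permutation test of means (adjusted p = 0.0905). Among RNA-binding and splicing proteins, 1 of 12 sites was called (8.33%, against 55.4% of all tested sites). That site, Son_31628545 (chr11:31628545), in a cofactor of pre-mRNA splicing, was called only just (exact adjusted p = 0.0999). Its mean of 3.9% in adults came from replicate 162 at 24.3%, and the other adults stood at 0.8% or less.

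At several sites 1 or a few samples stood far above the others of their age. At Nova1_66199286 (chr6:66199286), in a neuronal splicing regulator, adult replicate 5 read 92.1% (1160 of 1259 reads, 95% Wilson interval 90.5% to 93.5%), adult replicate 9 read 33.1% and adult replicate 162 read 12.8%, while the other 4 adults were at 1.4% or less. Among newborns, replicate 50 read 27.5% and the rest 2.9% or less. The means of 5.27% ± 10.9 and 20% ± 34.05 were not called (exact adjusted p = 0.929). At Blcap_148267329 (chr3:148267329) newborn replicate 49 read 52.8% and adult replicate 5 read 82.1%, whereas the remaining samples held at most 4.3%. Son_31628548 stood at 22.3% in newborn replicate 50 and at 5.2% or less in all others. Plekhd1_104487197 (chr6:104487197) was between 0.1% and 0.3% in all newborns and ranged from 0.2% to 56.2% in adults, a rise by rank (exact adjusted p = 0.0368) in which 2 adults, at 0.2% and 0.4%, lay among or next to the newborns. The Plekhd1_104487197 call was lost with female newborns only (exact adjusted p = 0.126) and with male newborns only (exact adjusted p = 0.197). Counting error at these sites is small beside these gaps. Control AMY held such gaps too. At Nova1_66199286 the 3 Control adults measured read 97.2%, 51.4% and 0.1%. One Control adult read 57.5% at Plekhd1_104487197 and the others 10.4% or less, and 1 read 53% at Son_31628548 and the others 4.7% or less. No Control adult exceeded 3.4% at Blcap_148267329 or 1.3% at Son_31628545.

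**Figure D4:**
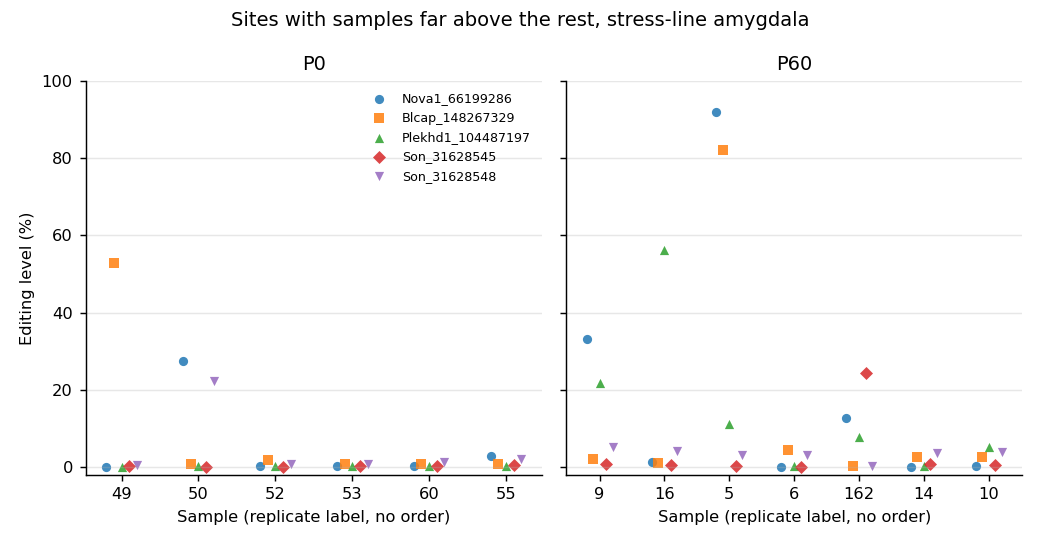
Editing level (percent) of 5 sites in each newborn (left) and adult (right) PRS amygdala sample; symbols mark the sites and sample labels have no order. At each site 1 or a few samples stand above the rest, such as adult replicate 5 at 92.1% for Nova1_66199286 and 82.1% for Blcap_148267329.

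Sites clustered in untranslated regions rose in 26 of 37 cases (70.3%, against 53.4% of all tested sites), and none fell. Ankrd28, an ankyrin-repeat regulatory subunit of a protein phosphatase, held 20 sites in its 3′ untranslated region, of which 17 rose and 14 had no overlap. Ankrd28 thus gave 17 of the 26 rises, and 10 of its sites lie on 1 amplicon, so they are not independent measurements. Its site chr16:7168481 went from 5.85% ± 0.787 to 24.3% ± 2.62 and chr16:7168466 from 5.18% ± 2.52 to 19.2% ± 5.4, with newborn replicate 53 at 0.4% for the latter. Usp29, a deubiquitinase, rose at all 3 sites, at chr1:65275941 from 2.28% ± 0.977 to 16.4% ± 4.86, on 90 to 660 reads. Plekhd1 rose at 3 of 6, Dagla at 2 of 3, Mad2l1 at 1 of 2 and Psma3 at 0 of 3. The third Dagla site (chr1:212734070), in the lipase that makes an endocannabinoid, had means of 13.7% ± 7.31 and 23.7% ± 12.5 and did not pass (exact adjusted p = 0.171). Without adult replicate 162, at 2.1%, the Dagla_212734070 difference was 13.7 points and was called (exact adjusted p = 0.0303). Outside these lists, Mpeg1, a pore-forming protein of macrophages and microglia, rose from 4.88% ± 2.37 to 30.2% ± 2.91 (chr1:215391800), and the growth factor gene Igf2 from 3.67% ± 0.543 to 23.7% ± 3.94 (chr1:202908966). At Mpeg1 newborn replicate 53 read 0.2% against 5% or more in the other newborns. Editing is a share of reads, so these rises say nothing of how much transcript was present.

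Apart from Htr2c D, 2 sites were called lower in adults, both under 1%. Pa2g4_1854034 (chr7:1854034) stood at 0.417% ± 0.0753 and 0.257% ± 0.127 (exact adjusted p = 0.0594). Slco2a1 (chr8:108098019), a prostaglandin transporter, read 0.2% to 1.1% in the newborns and 0 in the 4 adults measured (exact adjusted p = 0.0199). Those adults had 54 to 164 reads there, so a level of 0 allows up to 1.83% in the deepest and 5.56% in the shallowest, above every newborn value. The fall called at Slco2a1 therefore rests on adult levels that, sample by sample, this depth cannot tell from the newborn ones.

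The spread within the groups was not tested. Of 25 sites whose means reached 10% at both ages, 15 had the larger SD in newborns (median SD 4.19 points against 2.88). Over all 148 sites, most of them low, 47 had the larger SD in newborns.

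The same age step was read in the Control line to ask whether it differed with stress. Over 118 sites measured in all samples of both lines, the mean level went from 10.6% ± 0.355 (n = 5) to 15.9% ± 0.598 (n = 5) in Control rats and from 9.8% ± 0.31 (n = 6) to 15.6% ± 0.584 (n = 7) in PRS rats. The age difference was 0.465 points larger in PRS (exact permutation test of line labels within age, p = 0.318). Site by site, 0 of 144 tested sites (0%) differed after adjustment, and 9 had an unadjusted exact p under 0.05. The 3 smallest were IG5, an intergenic site (chr5:145407422), Ankrd28_7168469 and Adarb1_11709490, each with an exact adjusted p of 0.334. At IG5 the PRS samples rose from 2.55% ± 1.39 to 14.5% ± 3.88 and the Control samples from 6.48% to 9.6%. Ankrd28_7168469 differed by age by 1.7 points in PRS and 0.46 points in Control, and Adarb1_11709490 by 0.305 and 3.38 points, where the PRS value was 1.07 points without newborn replicate 53. At Gria4 R/G the age difference was 37.6 points in PRS and 27.6 in Control, at Gria3 R/G 31.7 and 20.9, and at Grik2 I/V 29.2 and 20, each with newborn PRS means below newborn Control means and adult means closer together than the newborn ones (exact adjusted p = 0.503, 0.503 and 0.602). At Htr2c D the Control samples went the other way, from 46.6% in newborns to 52.3% in adults, and the difference of −12.1 points between the lines did not pass either (exact adjusted p = 0.503).

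In the PFC of the same line the step from birth to adulthood was set beside that in the AMY. The test for a difference between the age steps of the regions called 5 of 146 tested sites (3.42%). Its p-values are exact only if region labels are exchangeable at each age. Newborn spread was unequal between the regions at some of these sites. Over all 146 the age difference was larger in the AMY at 81, with a median of 0.0369 points for AMY minus PFC. Htr2c A rose by 15.7 points in the AMY and by 65.4 points in the PFC (exact permutation test of region labels within age, adjusted p = 0.000921), and Htr2c B by 11.8 and 60.1 points (exact adjusted p = 0.0043). The adults were close in the 2 regions, at 90.3% and 93.2% for site A, while newborn PFC stood at 27.8% ± 24.2 against 74.6% ± 5.92 in newborn AMY. Newborn PFC samples varied widely at site A, from 4.9% through a median of 17.9% to 64.1%. The females read 4.9%, 17.2% and 18.6% and the males 10.2%, 52% and 64.1%. All these females had library numbers 1 to 48 and all these males 193 to 240. Sex and library set cannot be told apart here, and neither was tested. The highest newborn PFC value was still below the lowest newborn AMY value of 65.9%. Of the newborn PFC samples, 2 were shallow at this site, with 344 and 687 reads. The paper reports lower editing at A and B in F1 newborn PFC of the PRS line than of Controls. It also describes high variability between these animals, and low expression of a choroid plexus marker in the samples it assessed. Grik2 Q/R rose by 3.48 points in the AMY and 18.7 in the PFC (exact adjusted p = 0.000368), and Grik2 M/V by 4.17 and 6.52 (exact adjusted p = 0.000921). Of the 5, Igf2 alone rose more in the AMY, by 20 points against 9.32 (exact adjusted p = 0.0308). Newborn PFC replicate 64 held 21.7% at Igf2 and the other newborn PFC samples 4.9% or less. Over 115 sites measured in every sample of the 4 groups, the age difference of the mean level was 1.18 points smaller in the AMY (exact permutation test, p = 0.176), and over the 35 nonsynonymous ones 5.38 points smaller (p = 0.00406, same exact test). The 4 sites Htr2c A to D, on 1 amplicon, carried most of the latter. With them left out the AMY step minus the PFC step was 0.106 points over 111 sites (exact permutation p = 0.847) and −1.32 points over 31 nonsynonymous sites (exact permutation p = 0.127). Leaving out newborn PFC replicate 64 gave −1.68 points (AMY minus PFC) over all sites (exact permutation p = 0.046). The mean of replicate 64 over the 115 sites was 11%, above every newborn AMY sample (9.73% to 10.6%). The nonsynonymous mean was 24.7% ± 1.13 in AMY and 19.4% ± 2.52 in PFC at P0, and 35.1% in each at P60.

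**Figure D5:**
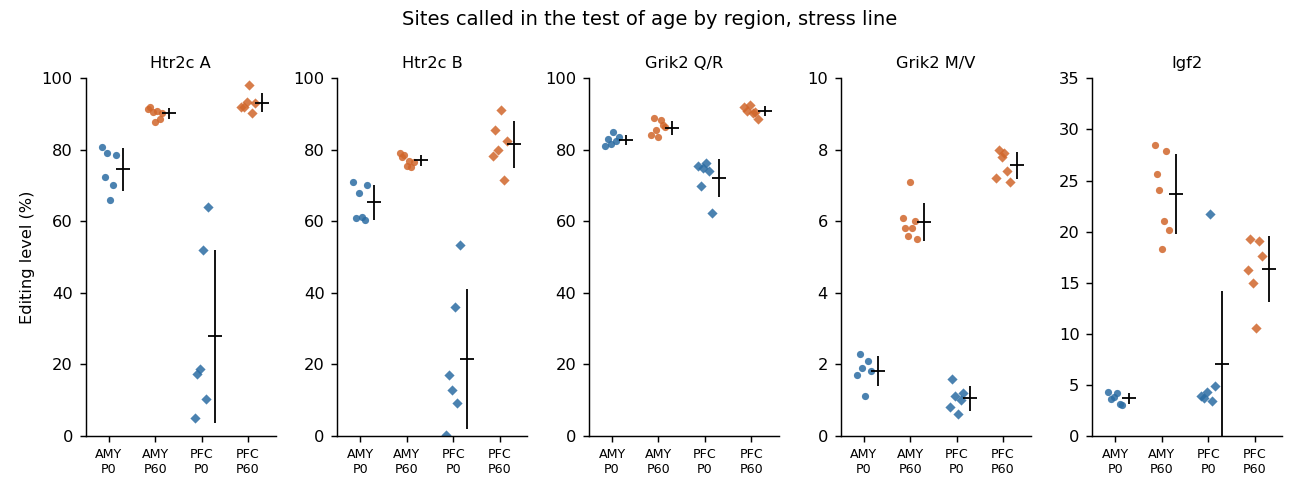
Editing level (percent) per sample at the 5 sites called in the test of age by region, in AMY (circles) and PFC (diamonds) of the PRS line, newborns in blue and adults in orange; crosses give mean and SD, with SD bars ending at 0, and the axes differ between panels. Newborn PFC lies lowest at Htr2c A and B and at Grik2 Q/R. Adult means in AMY and PFC are 90.3% and 93.2% at Htr2c A and 77.1% and 81.6% at Htr2c B. They are 86.2% and 90.85% at Grik2 Q/R, 5.99% and 7.57% at Grik2 M/V, and 23.7% and 16.3% at Igf2.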

How the data were processed

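Total RNA from tissue punches was amplified on a microfluidic array and sequenced with paired-end reads. Per the methods and the submitters' processing notes, the authors mapped reads to rn4 with BWA samse, allowing a set number of mismatches per read, and used SAMtools; their versions for these files are not given in the sources used here. The deposited files hold, per site, the read counts (coverage and edited reads) and the editing level as a fraction rounded by the authors to 3 decimals, here shown in percent. Mapping with a fixed mismatch limit can lose heavily edited reads. Levels with 50 reads or more were used, in at least 3 samples a group.

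At each site the ages were compared by an exact rank test (Mann-Whitney U, two-sided, mid-ranks for ties), with Benjamini-Hochberg adjustment over all tested sites and a false discovery rate of 0.1, after the study's methods. Means were compared with exact permutation tests, and age by line or region by permuting line or region labels within age. The latter takes the labels as exchangeable at each age. Where lines or regions differ at both ages or in spread, its p-values for a difference of age steps are approximate. The labels do not pair samples. The tools were scipy 1.17.1, numpy 2.4.6 and matplotlib 3.10.9 under Python 3.11.15, with pandas 2.3.3, and the tests were checked on simulated data.

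The sites and lists were chosen with earlier results of these data known. Named were the sites of receptor, channel, exocytosis, Flna, Adarb1, RNA-binding, widely recoded and clustered untranslated lists (at most 4 examples where a list had over 6 sites), the 10 largest changes without overlap, called falls, the 3 largest uncalled differences, sites called in or nearest to a call in the line and region tests, and named sites with a sample far from its group. Other tests, scales, coverage minimums, families and sample subsets were tried. Cell type lists could not be applied, since no expression is read out. Of the sites so chosen, 1 is not reported here.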

Additional observations from a re-analysis of the deposited data

Results flagged for a closer look

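In a group of 4 to 10 samples, a sample counts as far from the others when its gap to the nearest one takes up an unusually large share of the group's range. Chance would mark about 1 in 20 groups if values were independent and normally spread. Levels here are rounded, many lie near 0 and neighbouring sites share reads, so the counts below cannot be set against that rate. Among the named sites and the mean level, 20 of 100 groups held such a sample, 13 of them at sites where the group spanned at least 5 points. Newborn replicate 53, a male, was the lowest of its group at Grik2 Y/C (39.3%), Grik2 I/V (37.6%), Mpeg1 (0.2%), Htr2c 3UTR-1 (0.3%) and Ankrd28_7168466 (0.4%), and the highest at Grik2 G (5.9%). Without it the age test called 81 sites, 79 of them among the 82 called with all samples. Newborn replicate 50 was far above at Nova1_66199286 (27.5%) and Son_31628548 (22.3%), newborn replicate 49 at Blcap_148267329 (52.8%), newborn replicate 52 at Gria2 R/G (51%) and newborn replicate 60 at Flna (8.6%). Newborn replicate 49 was the lowest at Plekhd1_104487197 (0.1%) and Kcnma1 (2.3%). Among adults, replicate 5 was far above at Nova1_66199286 (92.1%) and Blcap_148267329 (82.1%), replicate 16 at Plekhd1_104487197 (56.2%) and Ankrd28_7168469 (4%), replicate 6 at Grik2 M/V (7.1%) and replicate 162 at Son_31628545 (24.3%), while replicate 162 was the lowest at Son_31628548 (0.3%).

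The difference between the age steps of the AMY and the PFC passed the test at 5 sites. The AMY step minus the PFC step was −49.6 points at Htr2c A, −48.3 points at Htr2c B, −15.2 points at Grik2 Q/R, −2.35 points at Grik2 M/V and 10.7 points at Igf2.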

How the results depend on the processing

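The number of sites called by age stayed within 1.5 times of 82 in every alternative run: it was 69 with male newborns only, 74 with female newborns only and 85 with unrounded levels, and 77 to 82 with 1 sample left out. The difference in mean editing was 5.51 to 5.87 points with 1 sample left out. Within library numbers 1 to 48 it was 5.9 points (exact permutation test, p = 0.0476, the smallest that 2 against 5 samples allow). No count of calls was made within those numbers, where the exact rank test with 2 newborns cannot reach a p under 0.0952. Age by line called 0 sites in every alternative run, and its mean difference was 0.304 to 0.645 points with 1 sample left out. Its site test with female newborns only was not run, since 2 Control newborns were female. Age by region called 8 sites on the logit scale, 9 within the study's table adjusted by class and 8 with female newborns only, against 5, and 5 to 7 with 1 sample left out. Its mean difference was −5.38 points over nonsynonymous sites (exact permutation p = 0.00406) and −1.68 to −0.856 points with 1 sample left out, passing only without PFC newborn replicate 64 (−1.68 points, exact permutation p = 0.046). With Htr2c A to D left out it was 0.106 points (exact permutation p = 0.847) and, over nonsynonymous sites, −1.32 points (exact permutation p = 0.127). Leaving out Control and PFC samples and these sites was chosen after seeing the data. Of 49 named sites, 35 kept their call and value in every alternative. Male newborns alone ended the calls of Grik2 Q/R (exact adjusted p = 0.139) and Kcnma1 (exact adjusted p = 0.189), female newborns alone that of Htr2c 3UTR-1 (exact adjusted p = 0.126). Htr2c D lost its call in 10, Pa2g4_1854034 in 7 and Son_31628545 in 14, and Son_31628548 ran from −2.1 to 2.24 points with 1 sample left out, turning higher in adults without newborn replicate 50 (2.24 points, exact adjusted p = 0.0784). The causes were not tested. No paired analysis was possible because the groups share no replicate numbers. Depth limits sites under 1%, such as Slco2a1.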
